A study of Mus musculus with 6 samples.

Results

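The tendon and ligament genes *Scx*, *Tnmd*, *Mkx*, *Thbs4* and *Cilp* were taken by symbol from the deposited table, where they are 5 of 56748 genes. RNA had been sequenced from 6 cultures of primary osteocytes isolated from limb bones of C57BL/6 mice aged 7 weeks, 3 labelled WT and 3 labelled cKO. The cKO mice carry floxed *Gsdmd* alleles and a Cre recombinase driven by the *Dmp1* promoter, so that deletion is limited to cells in which this promoter is active. WT refers to C57BL/6J mice without these alleles. After 7 days in culture, all cells had received 10 ng/mL of lipopolysaccharide (LPS) for 3 h, followed over a further 3 h by 20 µg/mL of aluminum hydroxide, an inflammasome activator. Cultures without stimulation were not analysed here, library totals ran from 39566835 to 49734046 counts, and no label ties a library to a separate animal, so the p-values measure the spread between these samples, which may be technical.

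Tendons and ligaments are built by fibroblasts that lay down parallel fibers of type I collagen. Scleraxis, the product of *Scx*, is a basic helix-loop-helix transcription factor that marks tendon progenitors and the cells where tendon attaches to bone, and Mohawk (*Mkx*) is a homeobox factor needed for the growth of collagen fibrils. Tenomodulin (*Tnmd*) is a membrane glycoprotein of mature tendon cells and a known target of scleraxis. Thrombospondin-4 (*Thbs4*) and cartilage intermediate layer protein (*Cilp*) are secreted into the matrix, the former in tendon and muscle, the latter in cartilage, tendon and ligament. Transforming growth factor-β (TGF-β) acting through Smad2 and Smad3 induces *Scx* in limb mesenchyme.

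Several markers went against the labels. *Gsdmd*, the deleted gene, held 609, 699 and 549 counts in WT against 885, 937 and 1045 in the libraries labelled cKO, so that it was higher where it should be deleted (log2 fold change 0.69 ± 0.083 SE, with an adjusted p of 2.27e-06 from the quasi-likelihood test of edgeR). One count per gene pools its exons, so the floxed exons cannot be seen apart from the rest. *Xist*, transcribed from the inactive X chromosome, rose from 0.0468 ± 0.0446 to 1138 ± 18.2 counts per 1000000 (CPM; SD, n = 3 each), whereas the Y-linked genes *Ddx3y*, *Eif2s3y*, *Kdm5d* and *Uty* had 0 counts in all 3 libraries labelled cKO and means of 30.9 to 107 CPM in WT. The methods describe the mice as matched for sex. Sex-linked expression and the genotype label cannot be told apart in these libraries, and each direction given here follows the label. *Il6* was called higher in the libraries labelled cKO (log2 fold change 1.24, adjusted p = 1.86e-11). The paper reports higher *Il6* expression from its RNA sequencing of stimulated *Gsdmd*-deficient osteocytes, and more IL-6 protein on blots. Of 8 osteocyte markers, *Sost* and *Dkk1* had 0 counts in all 6 libraries. If each count were independent, this would allow up to 3 counts in each (0.0605 to 0.0773 CPM). *Dmp1*, whose promoter drives the Cre, was counted 0 to 6 times per library, *Mepe* 0 to 2 times, *Phex* 2 to 22 times and *Fgf23* 0 to 34 times. *Pdpn* and *Ackr3*, which other stromal cells also express, were the 2 osteocyte markers with enough counts to be tested, at 234 and 327 CPM in WT. *Pdpn* fell by 0.28 on the log2 scale (adjusted p = 2.99e-05), *Ackr3* did not pass (0.0091, adjusted p = 0.899), and neither was called. The defining markers of the labelled cell type were thus at or near 0 counts. The paper identified the cells as osteocytes by immunofluorescence for DMP1, which was not analysed here.

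The 5 tendon and ligament genes had counts in every library, and the largest difference between the genotypes was 0.34 on the log2 scale. By the quasi-likelihood test of edgeR, 0 of the 5 were called, a call needing a log2 fold change of at least 1 in size and an adjusted p under 0.05. DESeq2 and limma-voom also called 0, and 2 of 5 (*Scx* and *Mkx*) had an unadjusted p under 0.05, against 46% of all tested genes. Among all 17146 tested genes, 11.2% were called, so that 0 of 5 does not set these genes apart. *Scx* passed on the p-value alone, 1 of 5 against 39.3% of all tested genes. The libraries of the genotypes did not overlap for *Scx* and *Mkx*, 2 of 5 against 49.2% of all tested genes. The median log2 fold change over the 5 genes was -0.19, from -0.29 for *Mkx* to 0.34 for *Tnmd*, and over all tested genes 0.0077. Summed over the 5 genes, the level was 56.3 to 60.1 CPM in the WT libraries and 49.6 to 51.7 CPM in those labelled cKO. In bulk samples, fewer cells of a type and less RNA per cell cannot be told apart.

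**Figure D1:**
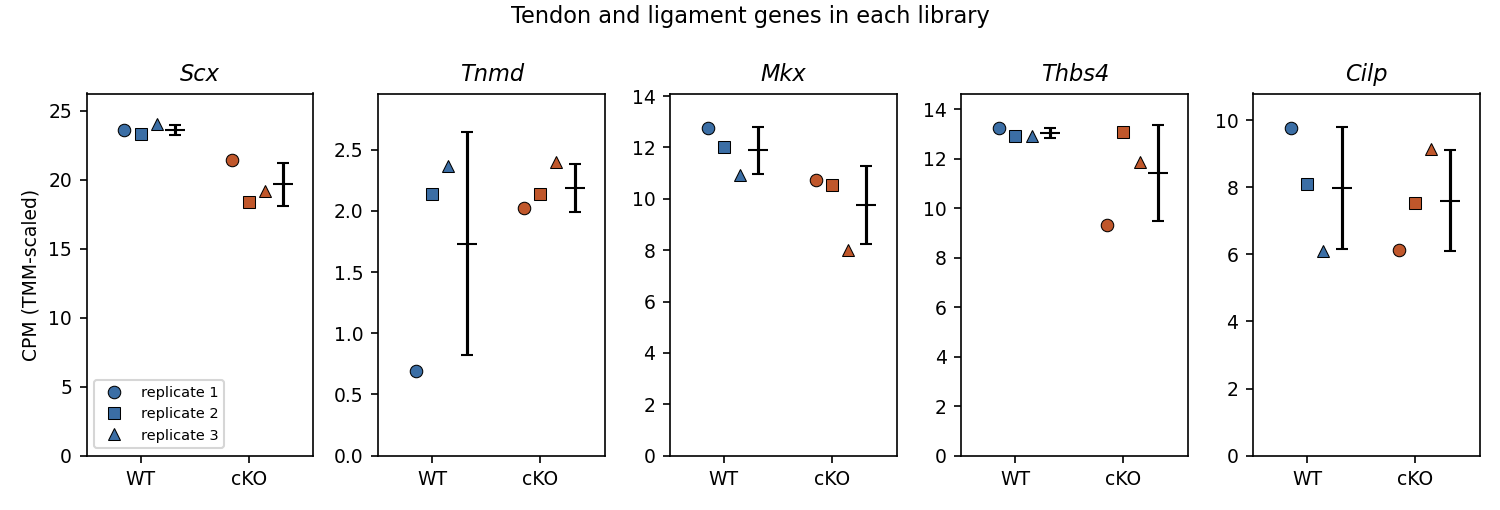
TMM-scaled CPM (vertical axes, starting at 0 and differing in scale) of the 5 tendon and ligament genes in the WT and cKO libraries, with symbols for the replicates and the mean ± SD (n = 3) beside them. *Scx* and *Mkx* are lower in each cKO library than in any WT library, *Tnmd* of WT replicate 1 stands below the other 5 libraries at 0.689 CPM, and *Thbs4* and *Cilp* overlap.

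*Scx*, on the plus strand of chromosome 15 from 76341652 to 76343658 (mm39), held 1062, 1156 and 932 counts in WT against 902, 732 and 871 in the libraries labelled cKO. This gave 23.6, 23.3 and 24.0 CPM in WT and 21.4, 18.4 and 19.2 CPM in the libraries labelled cKO. All 3 libraries labelled cKO were below all 3 WT libraries, which themselves differed by less than 1 CPM. *Scx* fell by 0.26 on the log2 scale (standard error 0.079, adjusted p = 0.0131), a fold of 0.833 with a 95% interval of 0.741 to 0.935. The p-value limit was missed without cKO replicate 2 (log2 fold change -0.22, adjusted p = 0.0703) and without cKO replicate 3 (-0.24, adjusted p = 0.0547). Over all 14 alternative settings the adjusted p-value of *Scx* ranged from 0.00723 to 0.0703.

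*Scx* lies inside *Bop1*, a ribosome biogenesis gene on the opposite strand of chromosome 15 from 76337189 to 76361477. In the GENCODE M39 annotation of the same build, the exons of both genes share 0 bases. *Bop1* stood at 51.9 ± 3.37 CPM in WT and 49.0 ± 2.54 CPM in the libraries labelled cKO (log2 fold change -0.083, adjusted p = 0.313). The libraries were made with a kit that marks strand, and the strand setting of the counting is not given in the sources used here. Reads of unspliced *Bop1* transcripts across *Scx* could not be separated if strand was ignored, so the *Scx* level carries this uncertainty.

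*Mkx*, on the minus strand of chromosome 18 from 6934518 to 7004780, held 574, 596 and 424 counts in WT against 451, 419 and 363 in the libraries labelled cKO. The levels were 12.8, 12.0 and 10.9 CPM in WT and 10.7, 10.5 and 7.99 CPM in the libraries labelled cKO. The genotypes did not overlap, although WT replicate 3 and cKO replicate 1 were close. Its log2 fold change of -0.29 ± 0.12 SE missed the limit, with an adjusted p of 0.0747, and the 95% interval of the fold ran from 0.683 to 0.980. Without WT replicate 3 *Mkx* passed the p-value limit (log2 fold change -0.35, adjusted p = 0.0379), without cKO replicate 3 its log2 fold change was -0.16 (adjusted p = 0.338), and over all 14 alternative settings its adjusted p-value ranged from 0.0379 to 0.338. An overlapping long noncoding RNA, *Gm2350*, had 0 counts in all 6 libraries.

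*Tnmd*, on the plus strand of the X chromosome from 132751729 to 132766326, held the fewest reads, with 31, 106 and 92 counts in WT against 85, 85 and 109 in the libraries labelled cKO. The levels were 0.689, 2.14 and 2.37 CPM in WT and 2.02, 2.14 and 2.40 CPM in the libraries labelled cKO. WT replicate 1 was the single low library, and the other 5 lay between 2.02 and 2.40 CPM. The log2 fold change was 0.34 (standard error 0.344, adjusted p = 0.480), and the interval of the fold, 0.765 to 2.09, still held a doubling. Without WT replicate 1 the log2 fold change turned to -0.056 (adjusted p = 0.894, within a range of 0.193 to 0.894 over all 14 alternative settings), and without WT replicate 2 or 3 it was 0.52 or 0.61. *Xist* moved with the genotype label, and its part in the value of this X-linked gene was not tested.

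The RNA levels of *Thbs4* and *Cilp*, which encode secreted proteins, overlapped between the genotypes. *Thbs4*, on the minus strand of chromosome 13 from 92888098 to 92931326, stood at 13.3, 12.9 and 12.9 CPM in WT and at 9.32, 13.1 and 11.9 CPM in the libraries labelled cKO. The WT libraries were nearly equal, and cKO replicate 1, with 392 counts, was lower than the other 5, which held 501 to 641. The log2 fold change was -0.19 (standard error 0.117, adjusted p = 0.225), with a fold between 0.739 and 1.04. Without cKO replicate 1 it was -0.061, without cKO replicate 2 it was -0.30, and over all 14 alternative settings the adjusted p-value of *Thbs4* ranged from 0.0836 to 0.737. Muscle is another source of *Thbs4*, and 2 of 9 muscle markers had enough counts to be tested. *Pax7*, *Myf5*, *Myog* and *Myh4* had 0 counts in all 6 libraries, *Myod1* and *Ckm* had 0 to 4, and the muscle marker highest in CPM, *Acta1*, fell from 6.35 ± 0.653 to 2.00 ± 0.418 CPM (adjusted p = 1.48e-06). The summed muscle list lay between 6.45 and 7.29 CPM in WT and between 1.81 and 2.49 CPM in the libraries labelled cKO, and its part in the *Thbs4* level was not tested.

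*Cilp*, on the plus strand of chromosome 9 from 65172462 to 65187887, varied widely within both genotypes. It held 439, 401 and 237 counts in WT against 258, 299 and 415 in the libraries labelled cKO, or 9.75, 8.08 and 6.11 CPM against 6.13, 7.52 and 9.14 CPM. The ranges of both genotypes almost coincided. The log2 fold change was -0.073 (standard error 0.171, adjusted p = 0.783), and the fold lay between 0.740 and 1.22. Its sign turned without WT replicate 1 (0.081) and without cKO replicate 1 (0.061), with adjusted p-values of 0.777 and 0.840, and over all 14 alternative settings they ranged from 0.269 to 0.849. Without WT replicate 3 or cKO replicate 3 the log2 fold change of *Cilp* was -0.23 in both cases. The intervals of *Scx*, *Mkx*, *Thbs4* and *Cilp* all exclude a 2-fold difference in either direction, and that of *Tnmd* excludes only a 2-fold decrease.

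To compare the 5 genes with each other, CPM were divided by the deposited gene length in kilobases. In WT, *Scx* stood at 11.8 ± 0.179 CPM per kilobase, *Thbs4* at 3.96 ± 0.0617, *Mkx* at 2.90 ± 0.225, *Cilp* at 1.88 ± 0.429 and *Tnmd* at 1.28 ± 0.673 (SD, n = 3). The order was the same in the libraries labelled cKO, at 9.80 ± 0.784, 3.47 ± 0.587, 2.38 ± 0.372, 1.79 ± 0.354 and 1.62 ± 0.144 CPM per kilobase. The ranges of *Cilp* and *Tnmd* overlapped in both genotypes, and those of *Mkx* and *Cilp* in the libraries labelled cKO. Among all tested genes *Scx* was at percentile 78.3 of this level in WT and at 73.6 in the libraries labelled cKO, *Thbs4* at 53.7 and 49.7, *Mkx* at 47.2 and 42.3, *Cilp* at 39.4 and 37.3 and *Tnmd* at 33.5 and 35.9. With the longer merged exons of GENCODE M39, *Mkx* (1.22 CPM per kilobase in WT) came below *Cilp* (1.37) and above *Tnmd* (1.18). In the libraries labelled cKO *Tnmd* (1.49) then stood above *Cilp* (1.30) and *Mkx* (0.998), so the order of *Mkx*, *Cilp* and *Tnmd* depends on the gene model. The deposited *Scx* length of 2007 bases equals the whole span of the gene, and its merged exons in GENCODE M39 also form 1 block, of 2719 bases. A spliced length of *Scx* was not used.

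The profile of each gene over the 6 libraries, centred on its mean log2 CPM, was compared with those of the 17145 other tested genes by root mean square distance. Nearest to *Scx* were *Zc3h13*, *Ptp4a3* and *Cwf19l1*, at 0.0236 to 0.0261 against a median distance of 0.261. *Zfp931*, *Gm45871* and *B630019K06Rik* were nearest to *Mkx* (0.0527 to 0.0586, median 0.299), and *Zc3h3*, *Klhl29* and *Mettl27* were nearest to *Thbs4* (0.0325 to 0.0621, median 0.275). Nearest to *Cilp* were *Kcnip3*, *Gm4654* and *Ccnj* at 0.0993 to 0.116 (median 0.330), and nearest to *Tnmd* were *Shd*, *Amd-ps3* and *Vmo1* at 0.112 to 0.184 (median 0.649). These neighbours of *Tnmd* were themselves low, at 0.175 to 0.397 CPM in WT. The smallest of 17145 distances lie below the median by construction. None of the 5 tendon and ligament genes was among the 3 nearest of another.

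Relatives within the same gene families were also measured. *Cnmd*, which encodes chondromodulin, the relative of tenomodulin found in cartilage, held 20, 27 and 6 counts in WT against 1956, 1902 and 1934 in the libraries labelled cKO. All libraries labelled cKO were far above WT, with 0.381 ± 0.202 against 45.6 ± 2.73 CPM (SD, n = 3 each). Its log2 fold change was 6.84 (standard error 0.166, adjusted p = 1.42e-15), a fold of 114 with an interval of 89.7 to 145.9. With 6 to 27 counts in WT, *Cnmd* had enough counts to be tested only through the libraries labelled cKO, where it is high. Within libraries, the log2 ratio of *Cnmd* to *Tnmd* was -2.18 ± 1.66 in WT and 4.39 ± 0.206 in the libraries labelled cKO. This ratio is a description, since *Cnmd* was kept through its high group. For 10 such pairs, *Cnmd* to *Tnmd* included, a two-sided exact permutation test was run. With 3 against 3 libraries it cannot give a p below 0.1 and so cannot pass 0.05. The 4 pairs at this smallest value had an adjusted p of 0.25 in this test. Nothing is therefore read from its p-values, here or where they are given below.

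*Comp*, the thrombospondin of cartilage and tendon, stood at 597, 549 and 555 CPM in WT and at 2079, 2203 and 2068 CPM in the libraries labelled cKO. The genotypes were far apart (log2 fold change 1.90, adjusted p = 2.43e-16). The log2 ratio of *Comp* to *Thbs4* was 5.44 ± 0.0444 in WT and 7.55 ± 0.222 in the libraries labelled cKO (exact permutation p = 0.1, the smallest possible). Against *Thbs4*, the log2 ratios of *Thbs1*, *Thbs2* and *Thbs3* differed between cKO and WT by 0.19, -0.013 and 0.26 (exact permutation p = 0.3, 0.9 and 0.2). That of *Cilp2* against *Cilp* differed by -0.22 (exact permutation p = 0.5).

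Among the Iroquois homeobox genes, relatives of *Mkx*, *Irx2* fell from 9.80, 9.19 and 8.89 CPM in WT to 1.05, 1.26 and 1.28 CPM in the libraries labelled cKO. The genotypes were well separated, at a log2 fold change of -2.96 ± 0.17 SE (adjusted p = 1.31e-10). Within libraries, the log2 ratio of *Irx2* to *Mkx* went from -0.35 ± 0.050 to -3.02 ± 0.36 and that of *Irx3* to *Mkx* from -0.53 ± 0.068 to 0.62 ± 0.30, both with the smallest exact permutation p of 0.1. The log2 ratios of *Irx1* and *Irx5* to *Mkx* differed between cKO and WT by -0.12 and 0.62 (exact permutation p = 0.4 and 0.2). *Irx4* and *Irx6* had 0 counts in all 6 libraries, and *Tcf15*, a relative of *Scx*, had 0 to 6. Over the whole list of relatives, 2 of 10 tested genes were called higher, against 6.56% of all tested genes, and 1 lower, against 4.64%, and on the p-value alone 3 rose and 3 fell, against 20.1% and 19.2%. One of those called higher is *Cnmd*, tested only through the libraries labelled cKO, and with at least 10 counts required in every library 1 was called higher, so nothing is read from this count.

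**Figure D2:**
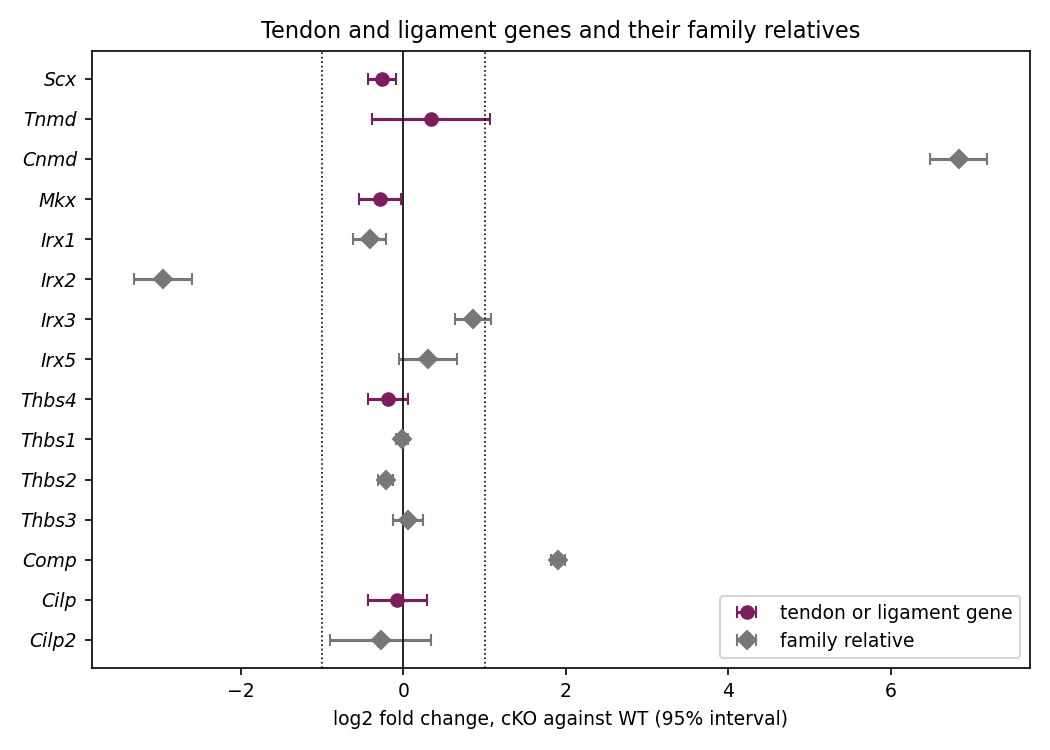
Log2 fold change of the libraries labelled cKO against WT (horizontal axis, bars for the 95% interval from edgeR's quasi-likelihood fit, n = 3 libraries each) for the 5 tendon and ligament genes (circles) and their family relatives (diamonds). Dotted lines mark a log2 fold change of 1 in size. *Cnmd* (6.84), *Irx2* (-2.96) and *Comp* (1.90) lie outside these lines, and every circle lies between them.

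*Cnmd* and *Comp* are also cartilage genes, and of 8 tested chondrocyte markers 4 were called higher and 0 lower, against 6.56% and 4.64% of all tested genes. On the p-value alone 6 rose and 2 fell, against 20.1% and 19.2%. *Acan*, the main cartilage proteoglycan, held 2 to 8 counts in the WT libraries and 782 to 922 in the libraries labelled cKO, whereas *Col2a1*, the defining collagen of cartilage and the highest of the list in CPM, fell by 0.84 on the log2 scale (adjusted p = 7.47e-11). *Col9a1* and *Col9a2* had 0 counts in all 3 WT libraries and *Matn1* 0 to 2, so that these genes and *Acan* had enough counts to be tested only through the libraries labelled cKO, where they are high, and their count supports nothing by itself. The summed list stood at 1427 to 1591 CPM in WT and at 873 to 970 CPM in the libraries labelled cKO, and its part in the values of *Cnmd*, *Comp* and *Cilp* was not tested.

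Macrophage markers also differed, and all 12 listed were called higher, against 6.56% of all tested genes, at a median of 3.06 on the log2 scale. Their summed level lay between 1200.1 and 1353 CPM in WT and between 6419 and 6733 CPM in the libraries labelled cKO. *Lyz2*, the highest in CPM, rose from 986 ± 57.1 to 4518 ± 114 CPM (SD, n = 3 each). The part of this list in the levels of *Scx* and *Mkx* was not tested.

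Of 10 other transcription factors of tendon, ligament and enthesis cells, 2 were called higher and 1 lower, against 6.56% and 4.64% of all tested genes. On the p-value alone 7 rose and 1 fell, against 20.1% and 19.2% of all tested genes, at a median of 0.53 on the log2 scale. Called were *Eya2*, a transcriptional cofactor found in limb tendons (1.06, adjusted p = 8.78e-08), *Klf2*, a factor of enthesis progenitors (1.12, adjusted p = 5.25e-07), and, lower, the load-responsive *Egr2* (-1.62, adjusted p = 1.61e-08). Its relative *Egr1*, the most abundant of the list, went the other way without being called. It rose from 72.6 to 129.8 CPM (0.84, adjusted p = 3.14e-09). Without WT replicate 1, 1 of the 10 was called higher, and without cKO replicate 2 it was 3.

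Scleraxis binds DNA paired with E proteins, and Id proteins, which lack a DNA-binding region, compete for these partners. Of 9 such genes and their Twist relatives, 2 were called lower and 0 higher, and on the p-value alone 3 fell and 2 rose, at a median of -0.082. Of all tested genes 4.64% were called lower and 6.56% higher, and 19.2% fell and 20.1% rose on the p-value alone. The E protein genes *Tcf3*, *Tcf4* and *Tcf12* did not pass, while *Id4* (-1.16, adjusted p = 1.86e-07) and *Twist2* (-1.45, adjusted p = 7.81e-09) were called lower and *Id2* rose by 0.85 (adjusted p = 7.61e-09).

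Among the signals that induce or limit tendon genes, 21 of 24 had enough counts, of which 1 was called lower and 0 higher, and on the p-value alone 11 fell and 5 rose, at a median of -0.22. Of all tested genes 4.64% were called lower and 6.56% higher, and on the p-value alone 19.2% fell and 20.1% rose. *Gdf6*, a growth and differentiation factor of joints and tendons, was the gene called, from 14.9, 15.7 and 12.2 CPM in WT to 3.64, 4.78 and 4.80 CPM in the libraries labelled cKO (-1.70, adjusted p = 2.07e-08). Of the TGF-β ligands, *Tgfb1* (0.72, adjusted p = 8.28e-09) and *Tgfb2* (0.41, adjusted p = 0.000142) rose and *Tgfb3* fell (-0.38, adjusted p = 3.32e-06). Of the *Smad* genes listed, *Smad3* (-0.29, adjusted p = 1.9e-05), *Smad4* (-0.30, adjusted p = 2.22e-05) and *Smad7* (-0.53, adjusted p = 1.42e-07) fell, and *Smad2* did not pass. Of the receptors, *Tgfbr2* (0.17, adjusted p = 0.0023) and *Tgfbr3* (0.28, adjusted p = 8.07e-06) rose, and *Tgfbr1* did not pass. *Ccn2*, the most abundant of the list, fell by 0.57 (adjusted p = 4.73e-11). Among the fibroblast growth factor genes, *Fgf2* (-0.86, adjusted p = 1.41e-11) and the receptor gene *Fgfr1* (-0.59, adjusted p = 2.63e-09) fell. *Etv4* (-0.99, adjusted p = 0.000119) and *Spry1* (-0.80, adjusted p = 4.42e-06) also fell, *Etv5* rose (0.35, adjusted p = 3.55e-05), and *Spry2* did not pass. The number called lower was 2 with RLE size factors, DESeq2, limma-voom or the replicate block, and also without WT replicate 1, without WT replicate 3 or without cKO replicate 1.

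Of 20 tested matrix genes of tendon and ligament, 3 were called higher and 1 lower, and on the p-value alone 8 rose and 8 fell, at a median of -0.074 on the log2 scale. The shares over all tested genes were 6.56% called higher and 4.64% lower, near which 1 of 20 lies, and 20.1% and 19.2% on the p-value alone. Called higher were *Comp* and the small proteoglycans *Fmod* (1.19, adjusted p = 1.53e-14) and *Lum* (1.49, adjusted p = 9.39e-14), which control the width of collagen fibrils, and called lower was *Col14a1*, a collagen on the fibril surface (-1.72, adjusted p = 3.47e-09). *Col1a1*, which encodes a chain of the main tendon collagen, fell by 0.67 on the log2 scale (adjusted p = 1.21e-10), and *Col1a2*, which encodes its partner, did not pass (adjusted p = 0.0917).

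Of 8 genes used to mark the tendon sheath and its progenitors, 2 were called lower and 0 higher. On the p-value alone 6 fell and 1 rose, at a median of -0.53. The shares over all tested genes were 4.64% called lower and 6.56% higher, and 19.2% and 20.1% on the p-value alone. *Nes* (-1.73, adjusted p = 1.9e-10) and *Mcam* (-1.68, adjusted p = 2.34e-05), which also mark cells around blood vessels, were the 2 called, and the sheath marker *Tppp3*, at 40 to 151 counts per library, fell by 0.91 on the log2 scale (adjusted p = 0.00955). Without cKO replicate 1 or without cKO replicate 3, 3 were called lower. Of 5 endothelial markers, *Pecam1* (-1.04), *Cdh5* (-3.08), *Tek* (-4.25) and *Emcn* (-5.91) were also called lower and *Kdr* (2.04) higher. *Emcn*, *Tek* and *Cdh5* were tested only through the WT libraries, where they are high. The part of these markers in the values of *Nes* and *Mcam* was not tested.

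**Figure D3:**
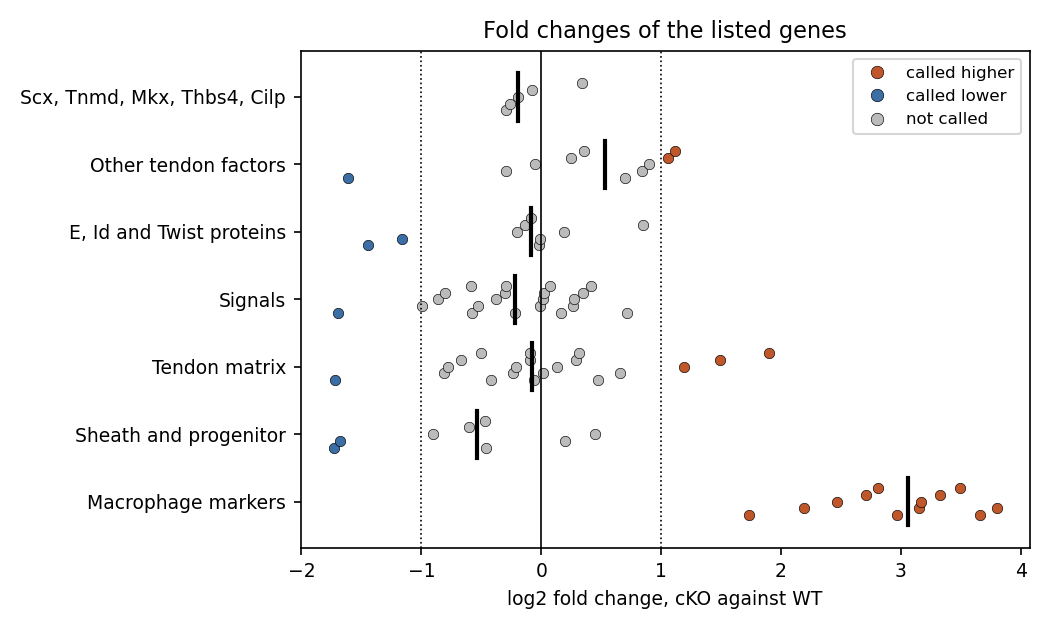
Log2 fold change of the libraries labelled cKO against WT (horizontal axis, n = 3 libraries each) for each tested gene of 7 lists, with a black bar at the median of a list and dotted lines at a log2 fold change of 1 in size. The 5 tendon and ligament genes lie between -0.29 and 0.34, the other tendon lists spread to both sides, and all 12 macrophage markers are called higher.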

How the data were processed

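Gene expression was measured by RNA sequencing in 6 libraries. Per the labels and methods, paired-end reads were trimmed by the authors, aligned with HISAT2 2.0.5 to GRCm39 (mm39) and assigned to genes with featureCounts, release 1.55.0-p3 in the submitters' notes and another release in the methods. They deposited raw counts per gene and, as another column, gene lengths in bases. Totals were 45128793, 49734046 and 39590527 counts in WT and 41645500, 39566835 and 45161392 in cKO. Even numbers made up 63.4% to 65.7% of small counts (1 to 10).

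Log2 fold changes, standard errors, 95% intervals and p-values came from edgeR 4.0.16 under R 4.3.3, with filterByExpr (17146 of 56748 genes tested), TMM normalization, glmQLFit, glmQLFTest on a model holding genotype alone, and Benjamini-Hochberg adjustment over all tested genes. The standard error is the log2 fold change divided by the square root of the F statistic. A CPM value is the count per 1000000 of library size after TMM scaling. Nearest profiles used log2 CPM with a prior count of 2. Intervals and floors of 3 counts cover no more than the spread between these libraries or counting error, since without molecular identifiers a read is not an independent molecule. Replicates differed by a chi-square of 4.82 to 13.9 per gene and were counted separately. The procedure was tested on simulated data. Named were the 5 genes, *Gsdmd*, *Il6*, the listed genes and the 3 nearest profiles of each of the 5. The genes and lists were chosen with earlier results of these data known. Alternatives were DESeq2 1.42.0, limma-voom (limma 3.58.1), other scalings and filters, halved counts, no limit on the fold change, a replicate block, each library left out, and GENCODE gene lengths. Blots, co-cultures and single-cell data were not analysed here.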

Additional observations from a re-analysis of the deposited data

How the results depend on the processing

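With all libraries kept, DESeq2, limma-voom, other scalings, other filters, halved counts and the replicate block were applied. The log2 fold changes of *Scx*, *Tnmd*, *Mkx*, *Thbs4*, *Cilp* and *Gsdmd* kept their direction and their side of the p-value limit under each. In size *Tnmd* moved from 0.34 to 0.54 under limma-voom and to 0.46 with the replicate block. Leaving out 1 library each time, *Scx* lay between -0.33 and -0.22, *Mkx* between -0.36 and -0.16, *Thbs4* between -0.30 and -0.061, *Cilp* between -0.23 and 0.081, *Tnmd* between -0.056 and 0.61 and *Gsdmd* between 0.66 and 0.74. *Cilp* turned positive without WT replicate 1 (0.081) and without cKO replicate 1 (0.061), and *Tnmd* turned negative without WT replicate 1 (-0.056). The cause was not tested. Without a limit on the fold change, 3445 genes were higher and 3285 lower, and 1 of the 5 genes was lower. Under the same setting, 7 tendon factors, 2 E, Id and Twist genes, 5 signals, 8 matrix genes, 3 relatives and 1 sheath gene were higher, and 1 tendon factor, 3 E, Id and Twist genes, 11 signals, 8 matrix genes, 3 relatives and 6 sheath genes were lower. With at least 10 counts in every library, which leaves fewer genes to test, 522 were called lower and 1 relative higher. RLE size factors, DESeq2, limma-voom and the replicate block each called 2 signals lower. Leaving out 1 library each time gave 1027 to 1153 higher and 773 to 827 lower genes, 1 to 3 tendon factors called higher, and 1 to 2 signals and 2 to 3 sheath genes called lower.

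Replicates with the same number did not deviate together, with correlations of deviations of -0.0055, 0.0023 and -0.010, so they share only a number. With the replicate block 1087 genes were called higher and 772 lower, and *Scx* had a log2 fold change of -0.27 (adjusted p = 0.0184). With merged exon lengths of GENCODE M39, the CPM per kilobase in WT and cKO were 8.69 and 7.24 for *Scx*, 1.22 and 0.998 for *Mkx* and 1.37 and 1.30 for *Cilp*, 1.18 and 1.49 for *Tnmd* and 3.53 and 3.10 for *Thbs4*. Depth limits *Tnmd* most, at 31 to 109 counts per library.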

Other observations

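Markers of the remaining cell types that a bone culture can hold went in both directions within each list. Of all tested genes, 6.56% were called higher and 4.64% lower, and 20.1% and 19.2% passed on the p-value alone. Endothelial markers were low, summing to 6.41 to 6.84 CPM in WT and 6.32 to 6.71 CPM in the libraries labelled cKO. Of the 5, *Emcn*, *Tek*, *Cdh5* and *Pecam1* were called lower, and *Kdr*, a receptor of vascular endothelial growth factor, was called higher (log2 fold change 2.04, adjusted p = 1.45e-06 by edgeR's quasi-likelihood test). *Emcn* had 35 to 59 counts per WT library and 0 to 2 in the libraries labelled cKO, and *Emcn*, *Tek* and *Cdh5* had enough counts to be tested only through the WT libraries, where they are high, so their calls support nothing by themselves. Of 5 tested osteoclast markers, *Acp5* and *Atp6v0d2* were called higher (1.24 and 1.84) and *Mmp9* lower (-2.83). *Ctsk*, the highest of them in CPM in WT but not in the libraries labelled cKO, fell by 0.41 on the log2 scale. On the p-value alone 2 rose and 2 fell. *Calcr* was counted 0 to 2 times and *Dcstamp* 0 to 8 times per library.

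Of 6 tested osteoblast markers, *Ibsp* was called higher (2.01, adjusted p = 5.95e-07) and 0 lower, but on the p-value alone 4 fell and 2 rose, at a median of -0.40. The summed level lay between 13605 and 15440.5 CPM in WT and between 9079.8 and 9297 CPM in the libraries labelled cKO. *Spp1*, the highest in CPM, fell by 0.64 on the log2 scale, *Alpl* rose by 0.68, and *Bglap* was counted 0 to 5 times per library. Of 7 fibroblast and marrow stromal markers, *Cxcl12* (1.66) and *Dpt* (1.35) were called higher and *Pi16* (-1.43) lower, while *Prrx1*, a limb mesenchyme factor, fell by 0.36 on the log2 scale, so that on the p-value alone 2 rose and 2 fell.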
